A study of Mus musculus with 15 samples.

Results

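The genes described here are the transcription factor NRF2 (gene Nfe2l2), its inhibitor Keap1, 6 target genes of NRF2 (Nqo1, Hmox1, Gclc, Gclm, Txnrd1 and Srxn1) and Sod2, an antioxidant gene driven by NF-kB. They were chosen by symbol, with earlier results of these data known, as 9 of the 55571 genes in the count table. All 9 passed the filter on low counts that left 14571 genes for testing. RNA sequencing covered 15 libraries of E0771, a mouse mammary carcinoma line, in 5 groups of 3: an empty vector, wild-type Malt1 (Malt1_WT), and 3 mutants, Malt1_PD, Malt1_V87R and Malt1_L88D. All groups were cells grown without T cell coculture, and no drug or cytokine is named in the labels. What PD stands for is not stated, and its counts were taken from columns that carry the name of a cysteine substitution. The labels give neither the promoter of the constructs nor whether each line is a pool or 1 clone, nor whether the 3 libraries of a group came from separate cultures. The p-values therefore measure the spread between these libraries only, and a difference between constructs cannot be told apart from a difference between the lines that carry them.

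NRF2 is made continuously and, in resting cells, is held by KEAP1, an adaptor of a CUL3 ubiquitin ligase, which marks it for degradation. Oxidants and electrophiles modify cysteines of KEAP1, NRF2 then accumulates, pairs with a small MAF protein and binds antioxidant response elements of genes for heme breakdown, glutathione synthesis, thioredoxin reduction and quinone detoxification. NRF2 is thus regulated largely as a protein, which RNA counts do not measure. MALT1 is a paracaspase, a scaffold and protease that joins BCL10 upstream of NF-kB, and Sod2, the superoxide dismutase of mitochondria, is a textbook NF-kB target.

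NRF2 and NF-kB act through short sequence elements near their target genes, so the promoter stretches that hold such letters are printed here. RefSeq promoters on GRCm38.p6, from 250 bases before to 50 bases after the start site, were matched for 7 of the 9 genes, all but Hmox1 and Gclc. They were searched on both strands for the core of the antioxidant response element, TGACNNNGC, and for the NF-kB consensus. The letters TGAC also open the AP-1 site. The core was found in Nfe2l2 itself (chr2:75704870-75704913, minus strand), in Gclm (chr3:122245398-122245456) and in the second of 3 annotated promoters of Txnrd1 (chr10:82859089-82859147). The NF-kB consensus was found, among these 7 genes, in Sod2 alone (chr17:13007731-13007790). Each stretch reads 5′ to 3′ along its gene, and capitals mark the match, which in Gclm and Txnrd1 is the core on the opposite strand.
Nfe2l2: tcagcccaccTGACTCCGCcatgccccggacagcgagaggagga
Gclm: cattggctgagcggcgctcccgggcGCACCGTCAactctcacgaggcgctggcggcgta
Txnrd1: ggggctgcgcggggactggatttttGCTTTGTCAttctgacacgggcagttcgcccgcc
Sod2: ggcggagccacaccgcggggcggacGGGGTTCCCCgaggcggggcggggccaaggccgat
The matches begin 240 bases before the start site in Nfe2l2, 134 in Gclm, 92 in Txnrd1 and 83 in Sod2. The Sod2 match reads as the consensus on both strands. Srxn1 held the core at base 29 of its transcript. Neither pattern was found in these windows of Keap1 and Nqo1, which says only that the letters are not there. Of 32851 mouse promoters of the same length, 12.4% held the core and 8.46% the NF-kB consensus, so a match is a description and not a binding site.

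Library totals ran from 15471746 to 21458457 counts, and mitochondrial genes took 2.401% to 2.655% of counts. Levels are CPM, the share of a library's scaled total on the usual per-million scale, given as mean ± SD over n = 3 libraries, and log2 fold changes carry their standard error (SE). Malt1 itself was at 26.4, 30.2 and 27.8 CPM in the vector libraries and at 208, 193 and 206 CPM with Malt1_WT. It was higher in the mutants, at 260, 247 and 243 CPM with Malt1_PD, 279, 279 and 281 CPM with Malt1_V87R and 258, 245 and 251 CPM with Malt1_L88D, so the 3 wild-type libraries had the lowest level among the constructs. The part of that difference in the results was not tested. Of 7 epithelial and carcinoma markers 3 passed the filter; Krt8 was at 86.3 to 121.8 CPM, while Krt18, Krt19, Krt7 and Cdh1 did not exceed 0.676 CPM. The 7 markers summed to 117.8 to 134.6 CPM in the vector libraries, 94.7 to 101.7 with Malt1_WT, 119.8 to 124.8 with Malt1_PD, 97.6 to 102 with Malt1_V87R and 104.3 to 107.5 with Malt1_L88D. Of the 3 tested, 2 fell with Malt1_WT, Krt8 (-0.38) and Epcam (-0.70), 1 fell with Malt1_PD, and 1 rose and 2 fell with each of Malt1_V87R and Malt1_L88D. Of all genes tested, 27.2% rose and 27.7% fell with Malt1_WT, and 22.8% and 22% with Malt1_PD. These shares were 7.01% and 4.7% with Malt1_V87R and 8.96% and 8.43% with Malt1_L88D. The summed level of 15 macrophage markers was 43.8 to 46.3 CPM in the vector libraries, 70.2 to 74.1 with Malt1_WT, 75.6 to 80.5 with Malt1_PD, 41.2 to 44.8 with Malt1_V87R and 44.3 to 66.1 with Malt1_L88D, and thus moved with several genes below. Of the 8 markers tested, 4 rose and 1 fell with Malt1_WT, with Cd68 going from 12.1 ± 0.516 to 25.2 ± 1.53 CPM and Cd14 from 8.04 ± 0.25 to 23.4 ± 1.32. With Malt1_PD 7 rose and 1 fell, and with Malt1_L88D 3 rose, beside the shares of all genes given above. Ptprc, Spi1, Tyrobp, C1qa and Aif1 were at or below 0.333 CPM in all 15 libraries. Other defining genes were higher in some groups: Adgre1 had a mean of 0.133 CPM with the vector and 1.23 with Malt1_WT, Csf1r 0.963 with the vector and 2.73 with Malt1_PD, and Lyz2 5.67 and 14.4. C1qb went from 0.072 to 0.541 CPM and C1qc from 0.0515 to 0.372 CPM in the same groups. The 8 T and NK cell markers summed to at most 4.15 CPM, with Cd2 and Ncr1 at 0 in every library, the 7 fibroblast markers to 249.2 to 332.2 CPM and the 4 endothelial markers to 10.47 to 15.47 CPM, both with the highest mean with Malt1_PD. The part of these markers in the results was not tested. In bulk RNA, fewer cells with a transcript and less transcript per cell cannot be told apart.

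**Figure D1:**
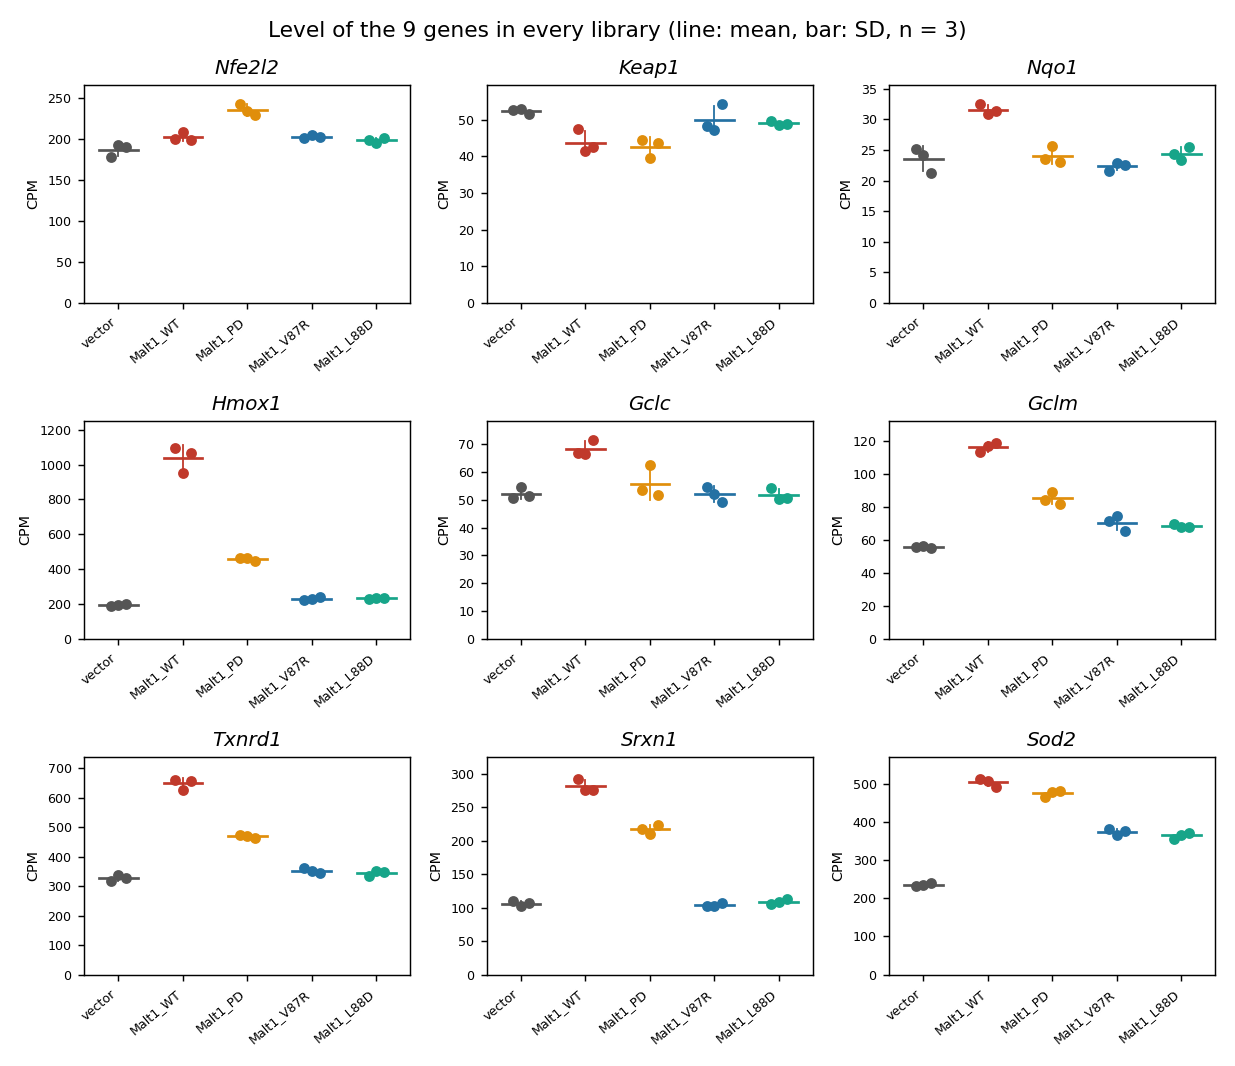
Level of each of the 9 genes in CPM (vertical axes, starting at 0) in the 3 libraries of each group; points are libraries, horizontal lines the group means and vertical lines the SD. Hmox1, Gclm, Txnrd1, Srxn1 and Sod2 were highest with Malt1_WT, second with Malt1_PD and lower in the other 3 groups, while Nfe2l2 was highest with Malt1_PD.

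Of the regulators, Nfe2l2 rose and Keap1 fell with both Malt1_WT and Malt1_PD. Nfe2l2, on chromosome 2 (75675513 to 75704641, minus strand, GRCm38), was at 178, 192 and 189.9 CPM in the vector libraries and 200.2, 209 and 199 CPM with Malt1_WT. It was at 243, 234 and 229 CPM with Malt1_PD. The Malt1_PD libraries were the highest and overlapped no other group. With Malt1_V87R the values were 202, 205 and 203 CPM and with Malt1_L88D 199, 195 and 202 CPM, both overlapping Malt1_WT and both above the vector libraries. Nfe2l2 rose with Malt1_WT by a log2 fold change of 0.12 ± 0.039 (edgeR, adjusted p = 0.011) and with Malt1_PD by 0.33 ± 0.039 (adjusted p = 2.7e-08). Malt1_PD exceeded Malt1_WT by 0.22 ± 0.039 (adjusted p = 0.00013), so these 2 constructs stood in the opposite order to that seen in the 6 targets. Below Malt1_PD, neighbours in the order Malt1_V87R, Malt1_WT and Malt1_L88D overlapped (adjusted p = 0.96 and 0.56). Malt1_L88D and the vector did not overlap, but their log2 difference of 0.088 (95% interval 0.0086 to 0.17) did not pass the test (adjusted p = 0.12). The rise with Malt1_V87R, 0.12 ± 0.039 (adjusted p = 0.037), was lost without vector replicate 1 (0.09, adjusted p = 0.23), without any 1 of the Malt1_V87R replicates (adjusted p = 0.073, 0.12 and 0.079 for replicates 1, 2 and 3) and without Malt1_L88D replicate 1 (adjusted p = 0.053). It was also lost with upper-quartile scaling (adjusted p = 0.052), without a filter (0.069) and with only the 6 libraries compared (0.066).

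Keap1, on chromosome 9 (21229730 to 21239361, minus strand), ran the other way. It was at 52.6, 52.8 and 51.6 CPM in the vector libraries, against 47.4, 41.3 and 42.5 CPM with Malt1_WT and 44.5, 39.4 and 43.7 CPM with Malt1_PD. Every library of these 2 constructs was below every vector library. With Malt1_V87R it was at 48.1, 47.1 and 54.3 CPM and with Malt1_L88D at 49.5, 48.5 and 48.9 CPM, with means between those levels; the Malt1_V87R libraries overlapped both the vector and Malt1_WT. Keap1 fell with Malt1_WT, with a log2 fold change of -0.26 ± 0.063 (adjusted p = 0.00084), and with Malt1_PD, -0.30 ± 0.062 (adjusted p = 0.00024). It did not pass the test for Malt1_V87R (-0.07 ± 0.061, adjusted p = 0.53) or Malt1_L88D (-0.096 ± 0.061, adjusted p = 0.31). Its highest neighbours, vector, Malt1_V87R and Malt1_L88D, did not pass the test against each other. The Malt1_L88D libraries nevertheless all lay below the vector libraries and above those of Malt1_WT. Malt1_WT and Malt1_PD overlapped (adjusted p = 0.73). An antisense gene on the opposite strand, Gm16754, overlaps 3317 bases of Keap1 and was counted at 4.14% of its total. The strand setting of the counting is not given in the sources used here.

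Hmox1 encodes heme oxygenase 1, which opens heme into biliverdin, iron and carbon monoxide, and showed the widest range of the 9 genes. It lies on chromosome 8 (75093621 to 75100589, plus strand). Its level was 189.7, 194 and 198 CPM in the vector libraries and 1094, 952 and 1067 CPM with Malt1_WT. With Malt1_PD it was 462, 464 and 448 CPM. Malt1_V87R gave 223, 227 and 239 CPM and Malt1_L88D 229, 236 and 233 CPM. All libraries of Malt1_PD lay below all of Malt1_WT and above all others, and those of Malt1_V87R and Malt1_L88D overlapped each other just above the vector. Hmox1 rose 5.355-fold with Malt1_WT (log2 2.42 ± 0.044, adjusted p = 2.9e-26) and 2.36-fold with Malt1_PD (log2 1.24 ± 0.043, adjusted p = 1.5e-19). It rose 1.18-fold with Malt1_V87R (adjusted p = 0.00019) and 1.2-fold with Malt1_L88D (adjusted p = 5.9e-05). The level with Malt1_PD was 2.27-fold lower than with Malt1_WT (log2 -1.18 ± 0.042, adjusted p = 1.7e-18). Divided by the exon length of 1751 bases, Hmox1 had the highest level per kilobase of the 9 genes in all 5 groups, 110.7 ± 2.36 CPM per kb with the vector and 592.8 ± 43.1 with Malt1_WT.

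Glutathione synthesis starts with glutamate-cysteine ligase, whose catalytic subunit is Gclc and whose modifier subunit, which raises its affinity for substrate, is Gclm. The modifier gene had the larger log2 fold change against the vector with all 4 constructs; the difference between the genes was not tested. Gclm, on chromosome 3 (122245557 to 122270732, plus strand), was at 55.9, 56.3 and 54.8 CPM with the vector, 113, 117 and 119 CPM with Malt1_WT and 84.2, 89.1 and 81.9 CPM with Malt1_PD. It was at 71.4, 74.1 and 65.3 CPM with Malt1_V87R and 69.2, 67.8 and 67.8 CPM with Malt1_L88D. The 4 constructs all lay above the vector with no overlap, in the order Malt1_WT, Malt1_PD and then the overlapping Malt1_V87R and Malt1_L88D. Gclm rose 2.09-fold with Malt1_WT (log2 1.06 ± 0.05, adjusted p = 7e-17) and 1.53-fold with Malt1_PD (log2 0.61 ± 0.05, adjusted p = 3.1e-11). It rose 1.26-fold with Malt1_V87R (adjusted p = 1.7e-05) and 1.23-fold with Malt1_L88D (adjusted p = 0.00011). Per kilobase of exon, Gclm was the lowest of the 9 genes with the vector, at 8.848 ± 0.124 CPM per kb.

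Gclc, on chromosome 9 (77754535 to 77794485, plus strand), was at 50.8, 54.6 and 51.4 CPM with the vector and 66.9, 66.5 and 71.5 CPM with Malt1_WT. The other constructs gave 53.5, 62.4 and 51.6 CPM (Malt1_PD), 54.8, 52.1 and 49.1 CPM (Malt1_V87R) and 54.4, 50.4 and 50.5 CPM (Malt1_L88D). The Malt1_WT libraries stood above all others, while the rest overlapped, with Malt1_PD replicate 2 the highest among them. Gclc rose 1.31-fold with Malt1_WT (log2 0.39 ± 0.062, adjusted p = 5.5e-06). It did not pass the test with Malt1_PD (log2 0.097 ± 0.063, 95% interval -0.032 to 0.23, adjusted p = 0.23) and was lower there than with Malt1_WT (-0.29 ± 0.062, adjusted p = 0.00093). The log2 differences from the vector were -0.0048 (interval -0.13 to 0.12) with Malt1_V87R and -0.013 (interval -0.14 to 0.12) with Malt1_L88D.

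Txnrd1, the cytosolic thioredoxin reductase that uses NADPH to reduce thioredoxin, and Srxn1, sulfiredoxin, which repairs overoxidized peroxiredoxins, serve the thioredoxin arm. Txnrd1, on chromosome 10 (82833951 to 82897712, plus strand), was at 318, 338 and 328 CPM with the vector, 659.5, 626 and 658 CPM with Malt1_WT and 474, 469 and 462 CPM with Malt1_PD. The values were 362, 352 and 343 CPM with Malt1_V87R and 336, 349.8 and 347 CPM with Malt1_L88D. Malt1_WT, Malt1_PD and the rest formed 3 levels without overlap. Txnrd1 rose 1.98-fold with Malt1_WT (log2 0.98 ± 0.036, adjusted p = 2.4e-19) and 1.43-fold with Malt1_PD (log2 0.51 ± 0.036, adjusted p = 1.1e-12). With Malt1_V87R, whose libraries all lay above the vector's, the log2 difference of 0.10 ± 0.036 missed the threshold (adjusted p = 0.06). It passed without vector replicate 2 (0.12, adjusted p = 0.037) or without Malt1_PD replicate 2 (0.11, adjusted p = 0.035). Malt1_L88D gave 0.07 ± 0.036 (adjusted p = 0.2).

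Srxn1, on chromosome 2 (152105516 to 152111376, plus strand), was raised with 2 of the 4 constructs. It was at 111, 102 and 106 CPM with the vector, 292, 276 and 275 CPM with Malt1_WT and 218, 209.6 and 223 CPM with Malt1_PD. Malt1_V87R gave 103, 102 and 107 CPM and Malt1_L88D 106, 108 and 113 CPM, both overlapping the vector. Srxn1 rose 2.64-fold with Malt1_WT (log2 1.40 ± 0.042, adjusted p = 2.2e-21) and 2.04-fold with Malt1_PD (log2 1.03 ± 0.042, adjusted p = 5.5e-18). The log2 differences of -0.034 (interval -0.12 to 0.054) with Malt1_V87R and 0.039 (interval -0.05 to 0.13) with Malt1_L88D did not pass the test. Per kilobase of exon it moved from the fourth place among the 9 genes with the vector, 37.66 ± 1.54 CPM per kb, to the second with Malt1_WT, 99.65 ± 3.37.

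Nqo1, on chromosome 8 (107388225 to 107403206, minus strand), encodes the NADPH quinone reductase that is often read as the classical NRF2 target, and it passed the test against the vector only with Malt1_WT. It was at 25.2, 24.2 and 21.3 CPM with the vector and 32.4, 30.9 and 31.4 CPM with Malt1_WT. The other groups gave 23.6, 25.6 and 23 CPM (Malt1_PD), 21.6, 22.9 and 22.6 CPM (Malt1_V87R) and 24.4, 23.4 and 25.4 CPM (Malt1_L88D). The 3 wild-type libraries stood above the other 12, each of which lay at 25.6 CPM or less. Nqo1 rose 1.34-fold with Malt1_WT (log2 0.42 ± 0.07, adjusted p = 9.7e-06). With Malt1_PD the log2 difference from the vector was 0.029 (interval -0.12 to 0.18), and the level was lower than with Malt1_WT (-0.39 ± 0.071, adjusted p = 0.00014). The other constructs differed from the wild type as well, with -0.50 ± 0.07 (adjusted p = 9.8e-07) in Malt1_V87R and -0.37 ± 0.071 (adjusted p = 7.2e-05) in Malt1_L88D.

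Sod2, on chromosome 17 (13006846 to 13040063, plus strand), rose with every construct. It was at 233, 234 and 240.1 CPM with the vector, 512, 507 and 492 CPM with Malt1_WT and 466, 477 and 479.9 CPM with Malt1_PD. With Malt1_V87R it was at 380.1, 366 and 375 CPM and with Malt1_L88D at 355, 366 and 371 CPM. The lowest of the 12 construct libraries, at 355 CPM, was well above the highest vector library, at 240.1 CPM. The rises were 2.13-fold with Malt1_WT (log2 1.09 ± 0.035, adjusted p = 7.4e-21) and 2.01-fold with Malt1_PD (log2 1.01 ± 0.035, adjusted p = 1e-19). They were 1.58-fold with Malt1_V87R (log2 0.66 ± 0.035, adjusted p = 8.9e-15) and 1.54-fold with Malt1_L88D (log2 0.63 ± 0.035, adjusted p = 3.6e-14). Malt1_PD and Malt1_WT differed by -0.086 ± 0.034, which did not pass the test (adjusted p = 0.068). That call depended on the settings: the adjusted p was 0.049 with RLE scaling, 0.03 with upper-quartile scaling, 0.042 with DESeq2, 0.048 with limma-voom and 0.038 with the stricter filter.

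To set Sod2 beside NRF2 targets within each library, the log2 ratio of its CPM to that of Hmox1, Gclm, Txnrd1 and Srxn1 was taken. These targets had the largest rises with Malt1_WT, and no ratio was taken over the other targets, Nqo1 and Gclc. Over Hmox1 the ratio was 0.28 ± 0.012 (SD, n = 3) with the vector, -1.04 ± 0.11 with Malt1_WT, 0.05 ± 0.044 with Malt1_PD, 0.70 ± 0.062 with Malt1_V87R and 0.65 ± 0.024 with Malt1_L88D. Relative to the vector, Sod2 was thus lower against Hmox1 with Malt1_WT and Malt1_PD and higher with the substitutions. Over Gclm the ratio was 2.08 ± 0.043 with the vector and 2.12 ± 0.064 with Malt1_WT, which overlapped, and 2.48 ± 0.066 with Malt1_PD. Over Srxn1 it was 1.15 ± 0.067 with the vector and 1.13 ± 0.049 with Malt1_PD, which overlapped, against 0.84 ± 0.034 with Malt1_WT and 1.85 ± 0.038 with Malt1_V87R. Over Txnrd1 it was -0.48 ± 0.047 with the vector, -0.36 ± 0.058 with Malt1_WT and 0.02 ± 0.041 with Malt1_PD. Each construct was compared with the vector, and Malt1_PD with Malt1_WT, in 20 two-sided exact permutation tests. In 18 of them the groups did not overlap, with an exact permutation p = 0.1, the smallest that 3 against 3 can give, and a Benjamini-Hochberg value of 0.111; this design cannot reach the threshold of 0.05. The 2 overlapping comparisons named above gave exact p = 0.7 for Gclm and 0.9 for Srxn1. How often the ratios of other gene pairs do not overlap was not computed, so the count of 18 is a description only.

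**Figure D2:**
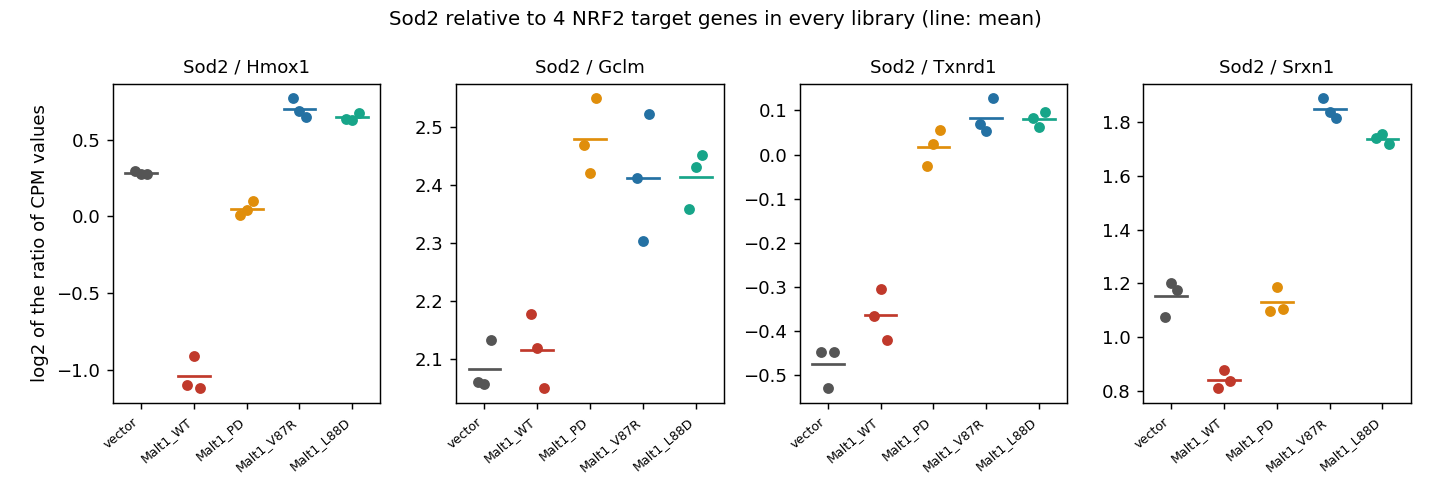
Log2 of the ratio of Sod2 CPM to the CPM of Hmox1, Gclm, Txnrd1 and Srxn1 (vertical axes, each with its own range) in every library; points are libraries and lines the group means. With Malt1_V87R and Malt1_L88D Sod2 was higher relative to all 4 genes than with the vector, and with Malt1_WT its ratio to Hmox1 fell to a mean of -1.04.

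Comparison of Malt1_WT with the vector asked how these genes differed between the libraries of these groups. Of the 9 genes, 8 rose and Keap1 fell, with a median log2 fold change of 0.98. Over all 14571 genes tested, 27.2% were higher and 27.7% lower, with a median of -0.01. The order of the rises was Hmox1 (2.42), Srxn1 (1.40), Sod2 (1.09), Gclm (1.06), Txnrd1 (0.98), Nqo1 (0.42), Gclc (0.39) and Nfe2l2 (0.12). With Malt1_PD, 6 of the 9 rose and Keap1 fell, with a median of 0.51, beside 22.8% higher and 22% lower among all genes. The 4 comparisons with the vector share its 3 libraries and are not independent of each other.

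Malt1_PD against Malt1_WT asked which of these genes differed between the mutant and the wild type. The 6 NRF2 targets were all lower with Malt1_PD, Nfe2l2 was higher, and Keap1 and Sod2 did not pass the test. After Hmox1, the differences ranged from -0.29 in Gclc through -0.37 in Srxn1, -0.39 in Nqo1 and -0.45 in Gclm to -0.47 in Txnrd1. The median over the 9 genes was -0.37, while 12.6% of all genes were higher and 10.7% lower (1834 and 1565 genes). With upper-quartile scaling that split was 1365 higher and 1766 lower, and the 7 calls among the 9 genes kept their direction.

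**Figure D3:**
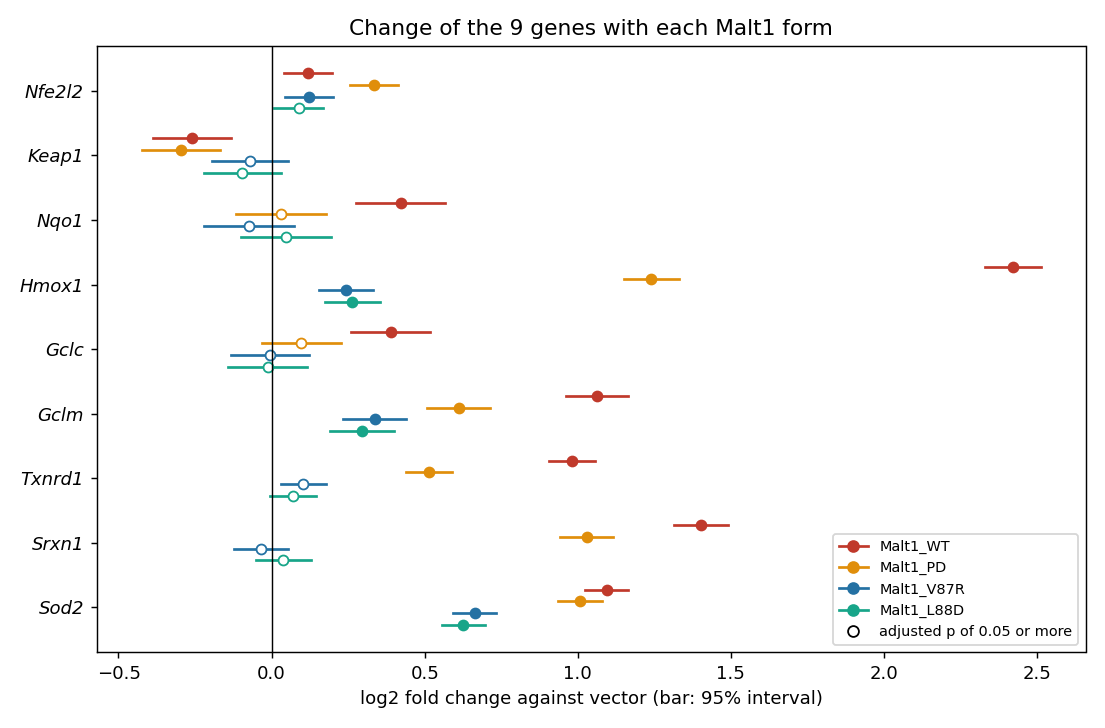
Log2 fold change of each gene against the vector (horizontal axis) for the 4 constructs; points are edgeR estimates, bars 95% intervals, and open points did not pass an adjusted p of 0.05. Malt1_WT lies farthest to the right for Hmox1, at 2.42, and Sod2 is the gene with the largest shift for Malt1_V87R and Malt1_L88D, at 0.66 and 0.63.

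The substitutions V87R and L88D, at neighbouring positions, came with fewer changes among these genes. With Malt1_V87R, 4 of the 9 genes rose (Sod2, Gclm, Hmox1 and Nfe2l2) beside 7.01% of all genes, and with Malt1_L88D 3 rose (Sod2, Gclm and Hmox1) beside 8.96%. None of the 9 fell with edgeR in either comparison, where 4.7% and 8.43% of all genes were lower. At an unadjusted p under 0.05 none fell either, and DESeq2 and limma-voom also gave 0. The median log2 fold change of the 9 genes was 0.10 with Malt1_V87R and 0.07 with Malt1_L88D. Against Malt1_WT, 7 of the 9 were lower with Malt1_V87R (all but Nfe2l2 and Keap1) beside 23.4% of all genes, and the same 7 were lower with Malt1_L88D, beside 22.3%. The largest of these differences were -2.18 ± 0.044 for Hmox1 and -1.44 ± 0.042 for Srxn1 with Malt1_V87R, and -2.16 ± 0.044 and -1.36 ± 0.042 with Malt1_L88D. The log2 difference of Sod2 from the wild type was -0.43 ± 0.034 (adjusted p = 1.4e-11) with Malt1_V87R and -0.47 ± 0.034 (adjusted p = 2.7e-12) with Malt1_L88D.

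Keap1 was the 1 gene higher than with Malt1_WT in these comparisons, beside 24.9% of all genes for Malt1_V87R and 22.8% for Malt1_L88D. Its differences were 0.19 ± 0.063 (adjusted p = 0.013) and 0.16 ± 0.064 (adjusted p = 0.036). Each call was lost on leaving out any 1 of several libraries. The first was lost without Malt1_WT replicate 2 (adjusted p = 0.13), Malt1_WT replicate 3 (0.085) or Malt1_V87R replicate 3 (0.19). The second was lost without Malt1_WT replicate 2 (adjusted p = 0.22) or 3 (0.15), without Malt1_L88D replicate 1 (0.086), 2 (0.082) or 3 (0.092), and without vector replicate 3 (0.055), Malt1_PD replicate 3 (0.053) or Malt1_V87R replicate 1 (0.053), and with DESeq2 (0.067) and the stricter filter (0.052).

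Against Malt1_PD, 6 of the 9 genes were lower with each of the substitutions (Nfe2l2, Hmox1, Gclm, Txnrd1, Srxn1 and Sod2), beside 21.1% of all genes for Malt1_V87R and 21.4% for Malt1_L88D. Keap1 was higher, beside 20.4% and 20%. Its differences were 0.23 ± 0.062 (adjusted p = 0.0038), lost without Malt1_V87R replicate 3 (0.15, adjusted p = 0.068), and 0.20 ± 0.063 (adjusted p = 0.011), lost without Malt1_PD replicate 2 (0.15, adjusted p = 0.069). Gclc and Nqo1 did not pass the test in either. The differences were -0.997 in Hmox1 and -1.06 in Srxn1 for Malt1_V87R, and -0.98 and -0.99 for Malt1_L88D.

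Between Malt1_V87R and Malt1_L88D none of the 9 genes and none of all 14571 was called by edgeR (0% higher and 0% lower). At an unadjusted p under 0.05, edgeR gave 453 genes higher and 399 lower, 0 of them among the 9, and DESeq2 and limma-voom called 0 genes. The log2 difference was -0.02 in Hmox1 (95% interval -0.11 to 0.069), 0.037 in Sod2 (-0.033 to 0.11) and 0.042 in Gclm (-0.06 to 0.14). The widest interval was that of Nqo1, -0.27 to 0.025. These intervals bound the difference between the neighbouring substitutions and do not show that they act alike.

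The rest of the pathway was followed in 120 genes in 9 lists, of which 100 passed the filter. With Malt1_WT 51 of the 100 rose and 29 fell, with Malt1_PD 41 rose and 25 fell, with Malt1_V87R 20 rose and 11 fell, and with Malt1_L88D 23 rose and 10 fell. Among all genes 27.2% rose and 27.7% fell with Malt1_WT, 22.8% and 22% with Malt1_PD, 7.01% and 4.7% with Malt1_V87R, and 8.96% and 8.43% with Malt1_L88D. The share of the 100 that fell was thus close to that of all genes with Malt1_WT, Malt1_PD and Malt1_L88D. The median log2 fold change over the 100 genes was 0.17 with Malt1_WT and 0.04 with Malt1_PD, well below the 0.98 and 0.51 of the 9 genes. The 9 genes and the lists were chosen with earlier results of these data known, so this gap is a description only. The falls with Malt1_V87R numbered 6 without vector replicate 1, 7 without vector replicate 3 and 7 without Malt1_V87R replicate 2. Those with Malt1_L88D numbered 5 without vector replicate 1, 6 without Malt1_L88D replicate 2 and 16 without vector replicate 2.

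**Figure D4:**
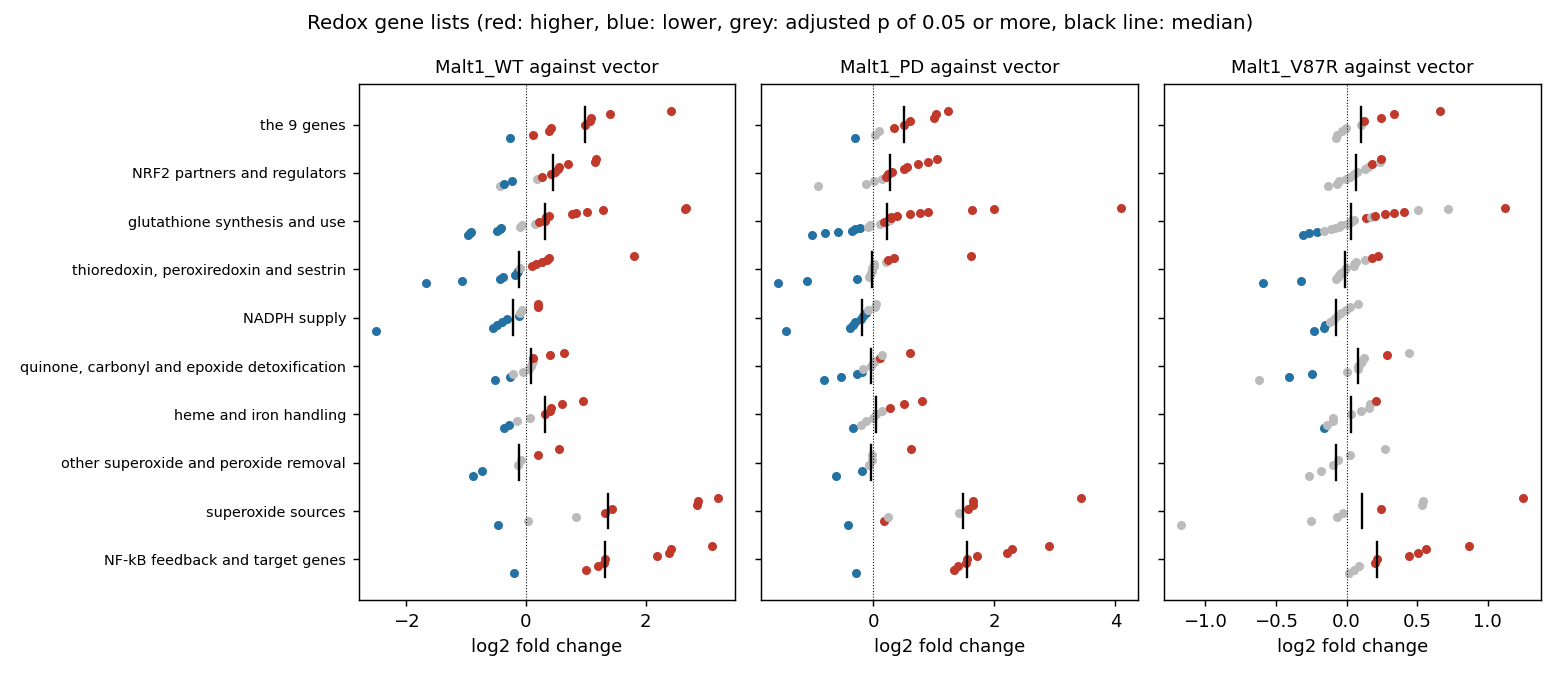
Log2 fold change of the tested genes of each list against the vector (horizontal axes, each panel with its own range) for Malt1_WT, Malt1_PD and Malt1_V87R; each point is a gene, red higher and blue lower at an adjusted p under 0.05, grey not called, and the black line is the list's median. NF-kB target genes had medians of 1.31 and 1.54 with Malt1_WT and Malt1_PD, while the list of genes that supply NADPH had medians below 0 in all 3 panels.

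Among NRF2 partners and regulators, 8 of 12 tested genes rose with Malt1_WT and 2 fell (27.2% higher and 27.7% lower among all genes), and the median was 0.45. Sqstm1, whose protein p62 can displace NRF2 from KEAP1, rose from 694 ± 30.1 to 1559 ± 92.2 CPM (log2 1.17 ± 0.043, adjusted p = 1.9e-19) and to 1433 ± 72.3 CPM with Malt1_PD. Maff and Mafg, small MAF proteins that pair with NRF2, rose by 1.15 ± 0.048 and 0.55 ± 0.038, and Nfe2l1, the NRF1 relative of NRF2, by 0.71 ± 0.035. With Malt1_PD the counts were 8 higher and 0 lower, beside 22.8% and 22% of all genes (2 lower at an unadjusted p under 0.05, 0 with DESeq2 and limma-voom). Maff was lower with Malt1_PD than with Malt1_WT (-0.25 ± 0.046), while the genes of the KEAP1 ligase Cul3 (0.24 ± 0.056) and Rbx1 (0.24 ± 0.053) were higher. Neither stood clearly above the vector with Malt1_PD. Cul3 was at 48.18 CPM with the vector, 41.05 with Malt1_WT and 48.39 with Malt1_PD, and Rbx1 at 97.22, 75.6 and 89.51 CPM. With Malt1_V87R and Malt1_L88D 2 genes rose, Maff (0.24 and 0.21) and Nfe2l1 (0.18 and 0.14), beside 7.01% and 8.96% of all genes.

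Of 21 tested glutathione genes, 12 rose and 6 fell with Malt1_WT (median 0.32), beside 27.2% higher and 27.7% lower among all genes. With Malt1_PD 11 rose and 6 fell (median 0.23), beside 22.8% and 22%. The number that fell was near the share of all genes in both. Slc7a11, the cystine carrier that feeds glutathione synthesis, was at 22, 30.9 and 27.5 CPM with the vector, 159, 178 and 165 CPM with Malt1_WT and 99.6, 124 and 93.3 CPM with Malt1_PD. Malt1_V87R gave 58.4, 60.3 and 54.6 CPM and Malt1_L88D 57.8, 58.4 and 59.4 CPM. All 4 constructs lay above the vector, with Malt1_WT highest and Malt1_PD next, and the log2 difference of Malt1_PD from Malt1_WT was -0.67 ± 0.10 (adjusted p = 0.00043). Its rise was 2.17-fold with Malt1_V87R (adjusted p = 3.3e-05) and 2.20-fold with Malt1_L88D (adjusted p = 2.6e-05). Abcc1, an exporter of glutathione conjugates, and Glrx, glutaredoxin, rose with Malt1_WT by 0.84 ± 0.036 and 0.77 ± 0.043. Mgst1 and Mgst2, microsomal glutathione transferases, fell by 0.97 and 0.91 on the log2 scale. Mgst1 was higher with Malt1_V87R instead (0.33 ± 0.056, adjusted p = 8.7e-05), and its level with Malt1_L88D was similar. It was at 53.77 ± 3.18 CPM with the vector, 67.88 ± 0.599 with Malt1_V87R, 67.65 ± 1.47 with Malt1_L88D and 26.74 ± 2.15 with Malt1_PD. Gpx1, glutathione peroxidase, was higher with Malt1_PD than with Malt1_WT (0.35 ± 0.063), and Abcc1 was lower (-0.24 ± 0.035). Both constructs lay below the vector in Gpx1, which was at 123.5 CPM with the vector, 64.83 with Malt1_WT and 82.69 with Malt1_PD. Reads of near-identical family members, such as glutathione transferases, may be shared between genes.

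In the thioredoxin, peroxiredoxin and sestrin list, 6 of 14 genes rose and 7 fell with Malt1_WT (27.2% higher and 27.7% lower among all genes). With Malt1_PD 3 rose and 3 fell, near the 22.8% and 22% of all genes. Sesn2, a stress-induced sestrin, rose 3.5-fold with Malt1_WT (log2 1.81 ± 0.047), from 43.7 to 153 CPM. Txnip, which binds and inhibits thioredoxin, fell from 109.9 ± 3.04 to 34.7 ± 1.53 CPM (log2 -1.66 ± 0.059), and Sesn1 from 27 ± 1.23 to 12.9 ± 0.601 CPM (-1.07 ± 0.08). Txnip also fell with Malt1_V87R and Malt1_L88D (-0.59 and -0.55), as did Sesn1 (-0.32 and -0.42). Prdx1, the abundant cytosolic peroxiredoxin that sulfiredoxin repairs, rose with Malt1_WT (0.35 ± 0.039), Malt1_V87R (0.23 ± 0.039) and Malt1_L88D (0.22 ± 0.039), and was lower with Malt1_PD than with Malt1_WT (-0.33 ± 0.039, adjusted p = 1.8e-07).

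The NADPH list had 2 of 10 genes higher and 6 lower with Malt1_WT (27.2% higher and 27.7% lower among all genes). With Malt1_PD it had 0 higher and 7 lower, beside 22.8% and 22% of all genes (0 higher also at an unadjusted p under 0.05 and with DESeq2 and limma-voom). Idh1, the cytosolic isocitrate dehydrogenase that makes NADPH, was at 67.8, 70.2 and 69.2 CPM with the vector, 12.6, 12.6 and 11.2 CPM with Malt1_WT and 25, 25.5 and 26.2 CPM with Malt1_PD. It was at 64.9, 61.1 and 60.9 CPM with Malt1_V87R and 64.6, 61.5 and 64.2 CPM with Malt1_L88D. The fall of 5.69-fold with Malt1_WT (log2 -2.51 ± 0.063, adjusted p = 3.2e-23) was opposite in direction to Nqo1, Txnrd1 and Gclm, and Malt1_PD lay between (1.07 ± 0.07 above Malt1_WT, adjusted p = 1.5e-12). Idh2, Tkt and Nnt fell with Malt1_WT by 0.55, 0.32 and 0.40 on the log2 scale. Tkt, transketolase of the pentose phosphate pathway, also fell with Malt1_V87R (-0.16) and Malt1_L88D (-0.23). Among the 2 genes that rose with Malt1_WT was Taldo1, from 150.3 ± 4.51 CPM with the vector to 173.6 ± 5.2 CPM. Taldo1 was lower with Malt1_PD than with Malt1_WT (-0.30 ± 0.0465, adjusted p = 1.9e-05).

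Of 11 tested genes that detoxify quinones, carbonyls and epoxides, 3 rose and 2 fell with Malt1_WT, the first near and the second below the 27.2% higher and 27.7% lower of all genes. Akr1b8, an aldo-keto reductase, rose (0.63 ± 0.066) and so did Osgin1 (0.40 ± 0.075), while Nqo2 (-0.52 ± 0.068) and Akr1b3 (-0.27 ± 0.044) fell. Osgin1 (-0.58 ± 0.077) and Ptgr1 (-0.35 ± 0.048) were lower with Malt1_PD than with Malt1_WT, and Akr1b3 was higher (0.39 ± 0.044). In the heme and iron list 5 of 9 rose and 2 fell with Malt1_WT (27.2% higher and 27.7% lower among all genes): Alas1, the first enzyme of heme synthesis, by 0.96 ± 0.044, the ferritin heavy chain Fth1 from 6093 ± 324 to 9212 ± 337 CPM (0.60 ± 0.046), and the heme transporter Slc48a1 by 0.41 ± 0.045. Fech, which inserts iron in the last step of heme synthesis, fell (-0.36 ± 0.06). The transferrin receptor Tfrc was lower with Malt1_PD than with Malt1_WT (-0.33 ± 0.062, adjusted p = 0.00075).

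Of 6 other genes tested for superoxide and peroxide removal, 2 rose (Cat, 0.19 ± 0.046, and Mt2, 0.55 ± 0.12) and 2 fell with Malt1_WT, near the 27.2% and 27.7% of all genes. The falls were those of the extracellular Sod3, from 74 ± 6.32 to 40 ± 1.11 CPM (-0.89 ± 0.067), and Ccs, the copper chaperone of SOD1 (-0.73 ± 0.10). Of 8 tested genes that make superoxide or nitric oxide, 5 rose with Malt1_WT and 1, Xdh, fell (-0.47 ± 0.037), beside the same shares of all genes. Xdh rose instead with Malt1_V87R (0.24 ± 0.036) and Malt1_L88D (0.23 ± 0.036). Nos2, inducible nitric oxide synthase, went from 322 ± 22.5 to 2351 ± 77.1 CPM with Malt1_WT and 1004 ± 22 CPM with Malt1_PD, a difference of -1.23 ± 0.041 between these constructs (adjusted p = 2.9e-19). It was at 768 ± 13.6 CPM with Malt1_V87R and 869.6 ± 30.6 CPM with Malt1_L88D, and it passed the test against the vector with all 4 constructs. Ncf1, a subunit of the phagocyte oxidase, rose from 0.537 ± 0.146 to 5.16 ± 0.334 CPM with Malt1_WT.

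NF-kB feedback and target genes served as the reference for Sod2: 8 of 9 rose and 1 fell with Malt1_WT and with Malt1_PD, and the medians were 1.31 and 1.54. Among all genes 27.2% rose and 27.7% fell with Malt1_WT, and 22.8% and 22% with Malt1_PD. Cxcl1 (3.11 ± 0.045), Icam1 (2.43 ± 0.067), Tnfaip3 (2.39 ± 0.058) and Nfkbia (1.31 ± 0.04) rose with Malt1_WT. Between Malt1_PD and Malt1_WT the list had 3 genes higher, such as Nfkb1 (0.34 ± 0.036) and Nfkbia (0.22 ± 0.039), and 3 lower, such as Icam1 (-0.72 ± 0.059), with a median of 0.09 beside 0.01 over all genes. Of all genes 12.6% were higher and 10.7% lower in that comparison. With Malt1_V87R 6 of the 9 rose, beside 7.01% of all genes, and with Malt1_L88D 5, beside 8.96%. The medians were 0.22 and 0.16. Icam1 (0.87 and 0.82), Cxcl1 (0.56 and 0.44) and Tnfaip3 (0.51 and 0.35) were among the genes that rose. None fell with either, where 4.7% and 8.43% of all genes were lower (0 also at an unadjusted p under 0.05 and with DESeq2 and limma-voom).

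Likeness of pattern was described by Pearson's r of log2 CPM over the 15 libraries, which fall into 5 groups and share their scaling, among 9400 genes with a mean of at least 5 CPM. Hmox1 and Txnrd1 were each other's closest gene of all (r = 0.996), followed by Eaf1 for both (0.995 and 0.992), then Hilpda for Hmox1 (0.995) and Abcc4 for Txnrd1 (0.99). Srxn1 was closest to Itga7 (0.995), Hip1r (0.995) and Alas1 (0.994), and Gclm to Cyth3 (0.986), Il6 (0.985) and Gna13 (0.985). Sod2 was closest to Tlr2 (0.993), Tax1bp1 (0.985) and Apobec3 (0.985). Gclc was closest to Rnf217 (0.943), Shc4 (0.942) and Alkbh5 (0.939), and Nqo1 to Plet1 (0.929), Pfkfb3 (0.919) and Fam117b (0.918). Nfe2l2 was closest to Ccl7 (0.953), Copb1 (0.941) and Ppp2r3a (0.929), and for Keap1 the genes given are Tpm2 (0.967) and Cdt1 (0.93). Within the 9 genes, r with Hmox1 was 0.964 for Gclm, 0.965 for Srxn1, 0.875 for Gclc, 0.842 for Nqo1 and 0.803 for Sod2, and only 0.389 for Nfe2l2. Keap1 had a negative r with each of the other 8 genes, from -0.463 with Nqo1 to -0.792 with Gclm.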

How the data were processed

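Total RNA of 15 E0771 libraries was sequenced from directional libraries, per the labels' protocols. The authors deposited whole-number, unnormalised counts per gene symbol; per the submitters' processing notes, GRCm38.p6, featureCounts 1.6.3, STAR 2.7.3a and Trim Galore 0.6.0 were used. How strand and multi-mapping reads were counted, and with which annotation, is not given in the sources used here. Columns were assigned by name; those named for a cysteine substitution were taken as Malt1_PD, the only construct otherwise without columns.

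Genes were filtered with filterByExpr (minimum count of 10) and tested in R 4.3.3 with edgeR 4.0.16: TMM factors (0.9732 to 1.0153), the quasi-likelihood test (robust), fitted on the 15 libraries together with group as the only term. The 10 two-sided comparisons each had p-values adjusted (Benjamini-Hochberg) across 14571 genes, and calls needed an adjusted p below 0.05. CPM used totals of tested genes times these factors. The common biological coefficient of variation was 4.605%. A count of 0 allows 3 counts, or 0.139 to 0.196 CPM over these library totals, for counting error only. The script was checked on simulated data. Alternatives were RLE and upper-quartile scaling, DESeq2 1.42.0, limma-voom 3.58.1, no filter, at least 1 CPM in 3 libraries, only the 6 libraries compared, a replicate block, and leaving out each library. Exact permutation tests used SciPy 1.17.1. Exon lengths and positions came from GENCODE M21.

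The 9 genes and all lists were chosen with earlier results of these data known. All 9 genes are named throughout. Genes named from each list came from a naming rule. It gave up to 4 called genes of smallest adjusted p for Malt1_WT against vector. For Malt1_PD against Malt1_WT, and for Malt1_V87R and Malt1_L88D against vector, it gave up to 3. The groups had to be without overlap, with at least 5 CPM in the higher group. Not all of these genes, nor all of their values in these comparisons, are given in the text. Their values in other comparisons, and the marker genes, were given after their values were seen. For each of the 9 genes the 3 genes of highest r are named, except 1 for Keap1 that is not reported here.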

Additional observations from a re-analysis of the deposited data

How the results depend on the processing

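None of the 90 log2 fold changes (9 genes in 10 comparisons) reversed under the alternatives run, and the calls that changed are those named in the report for Nfe2l2, Keap1, Txnrd1 and Sod2; the cause was not tested. For all listed genes that the naming rule gave, whether or not named in the text, 5333 of 5520 values in 5 comparisons kept their call. Of the rest, 128 lost it, 59 gained it and 0 reversed. The count of the 9 genes higher with Malt1_L88D than with Malt1_WT went from 1 to 0 with DESeq2 and with the filter of 1 CPM in 3 libraries. Between Malt1_V87R and Malt1_L88D, no filter gave 1 gene higher and 4 lower, with 1 listed gene lower, and the fit of 6 libraries gave 14 higher and 11 lower, with 1 listed gene lower. Malt1_PD against Malt1_WT gave 1201 genes higher in the fit of 6 libraries, against 1834.

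Leaving out 1 library at a time, the genes lower with Malt1_V87R than with the vector numbered 357 to 858 (685 with all libraries; lowest without Malt1_V87R replicate 2) and the listed genes 6 to 13 (11). For Malt1_L88D they numbered 573 to 1382 (1228; lowest without vector replicate 1) and 5 to 16 (10). Genes higher with Malt1_PD than with Malt1_WT numbered 1107 to 2085 (1834; lowest without Malt1_PD replicate 1) and listed genes 12 to 24 (20; lowest without the same library). The count of the 9 genes higher was 0 to 1 for Malt1_V87R and Malt1_L88D, against Malt1_WT and against Malt1_PD. Genes lower with Malt1_V87R than with Malt1_L88D numbered 0 to 2, the 2 without Malt1_L88D replicate 1.

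Replicate numbers gave little sign of pairing the libraries: deviations of same-numbered libraries had r from -0.051 to 0.15. The median was 0.019, beside -0.007 for libraries of different number. Of the same-numbered pairs, 2 of 30 were over 0.1, and 9 of 15 libraries correlated best with their own number. With the number as a replicate block, Txnrd1 passed for Malt1_V87R against vector (0.10, adjusted p = 0.035) and Sod2 for Malt1_PD against Malt1_WT (-0.09, adjusted p = 0.043), and no other call on the 9 genes changed. Scaling moved the median of all genes by at most 0.025.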
